A study of Saccharomyces cerevisiae with 4 samples.

Results

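The genes described are 43 heat shock protein and chaperone genes of budding yeast, Saccharomyces cerevisiae, taken by name from the R64 gene table, where all 43 were found among 6002 nuclear protein-coding genes. They were read in chromatin immunoprecipitation sequencing (ChIP-seq) of Swc4, a subunit shared by the SWR1 remodeler, which places the histone variant H2A.Z, and by the NuA4 histone acetyltransferase. Every library came from untreated haploid cells of the BY strain in mid-log growth in the rich medium YPD, carried Swc4-13myc (Swc4 with a tag of 13 myc copies) and was precipitated with an anti-myc antibody. The groups were wild_type and yaf9d, with 2 libraries each, and yaf9d lacks YAF9 according to the sample titles, while the genotype entry of those samples names the tag alone. Yaf9 is another subunit shared by both complexes. An untagged library was not analysed here, and the labels do not say whether libraries sharing a genotype were grown separately, so p-values measure only the spread between these samples, which may be technical.

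Chaperones bind unfolded protein and keep it from aggregating or help it to fold, many of them in cycles of ATP. Hsp70 proteins take up short unfolded stretches with the help of J-domain proteins and nucleotide exchange factors, Hsp90 matures signalling proteins with its own co-chaperones, and chaperonins enclose a chain in a ring. In yeast the transcription factor Hsf1 drives many of these genes, some at all times and others upon heat, and the cells studied here were not heated.

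For each library the authors deposited a list of peaks, which are stretches of the genome enriched in the precipitate, each with a summit and a fold at that summit over a local background. A promoter peak was one that overlapped the 500 bp upstream of a coding start by at least 1 bp, and a body summit was a summit between the coding start and the coding end. A gene without either was not called, which does not show that Swc4 was absent. The lists hold 884 and 704 nuclear peaks for wild_type replicates 1 and 2, and 616 and 1139 for yaf9d replicates 1 and 2, with median folds of 1.83, 1.92, 2.50 and 1.80 in that order. Values of 4 libraries are given below in the same order.

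Swc4 peaks at the chaperone genes were mostly of low to middling fold, and many of the genes had no promoter peak or body summit. Of the 43, 20 had neither a promoter peak nor a body summit in any library, which is 46.5% of the members against 64.7% of all coding genes. Those 20 included both Hsp90 genes, HSC82 and HSP82, the disaggregases HSP104 and HSP78, the stress-induced Hsp70 genes SSA3 and SSA4, the small heat shock protein gene HSP26, and HSF1 itself. None of the 20 had a summit within 1000 bp of its coding start in any of the 4 libraries. That follows in large part from their selection, since a gene without either call has no summit over most of that span. Over all members, 21 of 43 had no such summit, a lower share than the 3750 of 6002 coding genes (62.5%). The remaining 23 genes accounted for 58 distinct peaks over the lists, with folds from 1.23 to 3.72 and a median of 1.67. A fold of 2 or more was reached by 17 of the 58, and the best place of any in its own list was 73rd of 884, held by CCT2 in wild_type replicate 1.

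**Figure D1:**
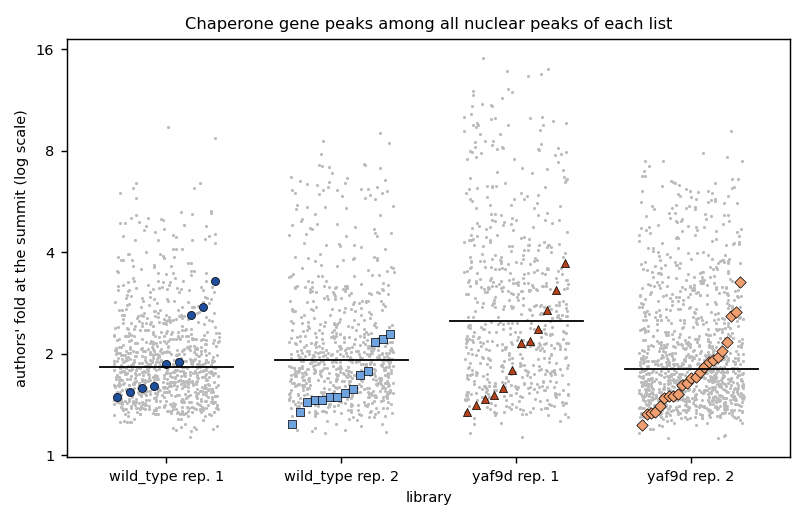
Authors' fold at the summit (log axis) of every nuclear peak in each list (grey), with the peaks of the chaperone genes in colour and the median of the list as a black line; sideways position carries no meaning. The chaperone peaks number 9, 14, 12 and 23 in the 4 lists, and none exceeds 3.72. Ranked by fold, their median place was 67.1% of the way down the list and the best was 8.26%.

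Within their own lists, 5 of 9, 3 of 14, 3 of 12 and 9 of 23 chaperone peaks lay above the median fold. Their median folds were 1.86, 1.51, 1.98 and 1.70. Read depth at these summits, recovered from the listed fold and p-value on the caller's scale, ran from 63 to 537. The local background recovered in the same way had medians of 74.2, 84.8, 87.8 and 117 at chaperone peaks, against 64.5, 56.2, 46.5 and 71.3 over all peaks of the lists, so the chaperone peaks lay in stretches of higher background in every library. The part of that background in the calls was not tested.

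Promoter peaks occurred at chaperone genes at shares near those of coding genes at large. They were present at 6, 8, 7 and 4 members, or 14.0%, 18.6%, 16.3% and 9.30%, against 15.9%, 14.3%, 11.2% and 13.6% of all coding genes. The genotype means were 7 ± 1.41 (wild_type) and 5.5 ± 2.12 (yaf9d; SD, n = 2; exact permutation test, two-sided here and throughout, p = 0.667), closer together than replicates of yaf9d were. With 2 libraries against 2 such a test cannot go below 0.33. The gene called each time was CCT6, 1 of 43 against 4.83% of coding genes. Both wild_type libraries called 5 members and both yaf9d libraries 4, against 9.58% and 8.63% of coding genes.

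Summits inside the promoter window gave another count. A summit inside the 500 bp window was found at 1, 1, 5 and 2 members, against 5.86%, 4.85%, 5.68% and 6.13% of coding genes. The difference between the means was 2.5 genes, higher in yaf9d (exact permutation p = 0.33, the smallest possible), the opposite direction to the count by overlap. It is 1 gene without yaf9d replicate 1 and 4 genes without yaf9d replicate 2. In wild_type, 1 of 6 and 1 of 8 members with a promoter peak had a summit in the window, against 352 of 952 and 291 of 859 coding genes, so peaks reaching in from a summit elsewhere were common among all genes too.

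Body summits were present at 6, 10, 5 and 15 members, or 14.0%, 23.3%, 11.6% and 34.9%, against 10.5%, 6.88%, 3.57% and 12.1% of coding genes. The members are longer than most genes, with a median coding length of 1680 bp against 1200 bp. Per kilobase of coding sequence the members held 0.0882, 0.176, 0.0882 and 0.309 summits and all coding genes 0.0725, 0.0476, 0.0248 and 0.0887, so the members were above the average gene in each library, by the smallest margin in wild_type replicate 1. The genotype means of 8 ± 2.83 and 10 ± 7.07 members (SD, n = 2; exact permutation p = 1) differed by less than the spread. That difference of 2 genes rests on yaf9d replicate 2, without which it is -3 genes. Both wild_type libraries gave a body summit at 5 members, against 4.13% of coding genes, and both yaf9d libraries at 4, against 2.17%.

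**Figure D2:**
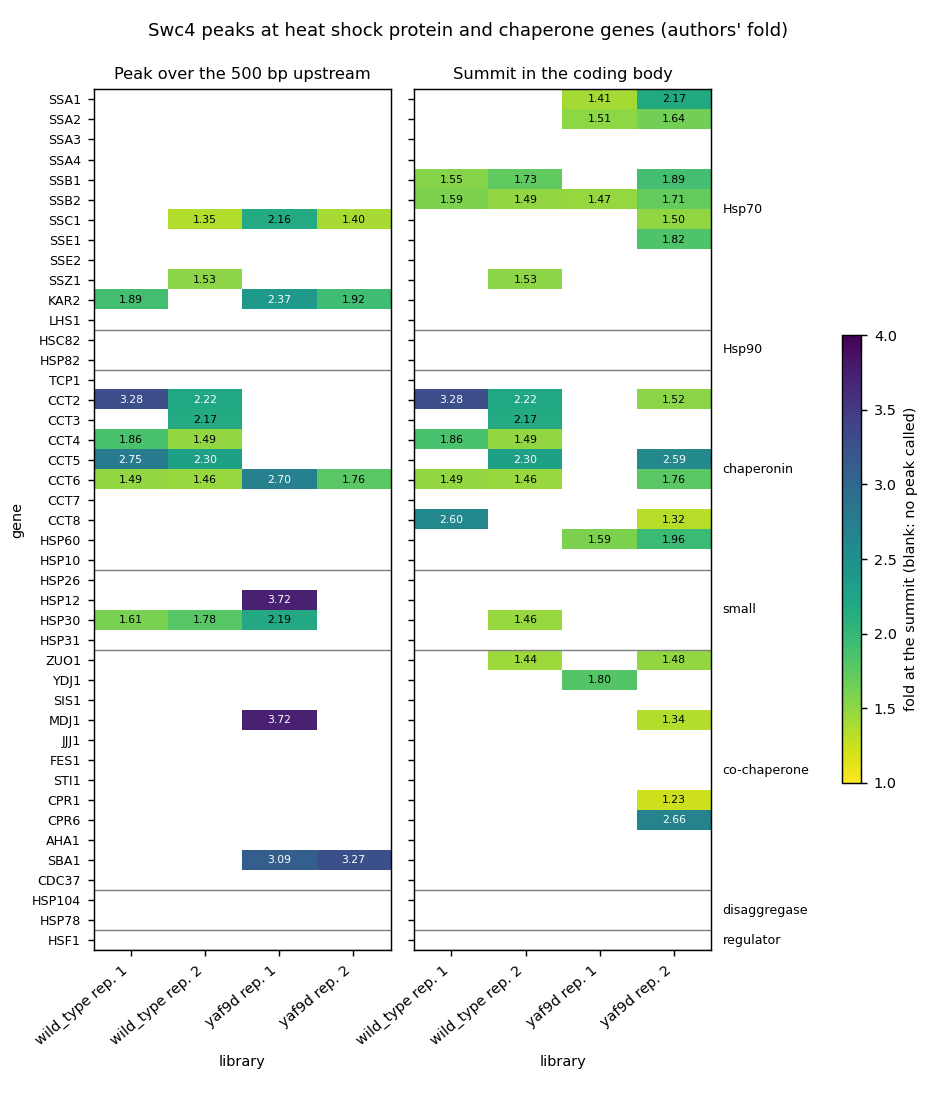
Authors' fold of the best peak at each of the 43 genes (rows, grouped by family) in each library (columns). The left panel is for peaks overlapping the 500 bp upstream and the right panel for summits in the coding body. Blank cells had no such peak. The calls gather in the Hsp70 and chaperonin rows, and the rows of the Hsp90, disaggregase and HSF1 genes are blank throughout.

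Chaperonin promoters were called at more genes in each wild_type library than in either yaf9d library. TRiC, the cytosolic chaperonin that folds actin and tubulin, is a ring of 8 different subunits encoded by TCP1 and CCT2 to CCT8, and HSP60 and HSP10 encode its mitochondrial relative and that chaperonin's lid. Promoter peaks marked 4, 5, 1 and 1 of the 10 chaperonin genes, and all of these were TRiC genes. The means were 4.5 ± 0.71 (wild_type) and 1 ± 0 (yaf9d; n = 2, SD; p = 0.33 by exact permutation, the floor of the test), and the counts of the genotypes did not overlap. All coding genes also had more promoter calls in wild_type, with means of 905.5 and 744.5 genes. Their counts were 952, 859, 675 and 814 genes, or 15.9%, 14.3%, 11.2% and 13.6%. Those of the genotypes did not overlap either, so the lack of overlap alone does not set the chaperonin genes apart. In 3 of the 10, CCT2, CCT4 and CCT5, the promoter was called in both wild_type lists and in neither list of yaf9d, against 3.23% of coding genes, and 0 showed the reverse, against 1.50%.

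The wild_type peaks at TRiC genes were centred just inside the coding sequence rather than in the promoter. CCT2 had summits 73 bp and 84 bp downstream of its coding start in wild_type, with folds of 3.28 and 2.22. In yaf9d it had no peak in replicate 1 and a fold of 1.52 in replicate 2, where the summit lay 98 bp downstream and the peak, on chromosome IX from 83349 to 83628, did not reach the promoter. CCT2 is therefore a case in which the promoter call was lost in yaf9d replicate 2 while a peak stayed at the same place. In wild_type replicate 1 the peak ran from 82174 to 83729 and also covered the whole gap to the divergent neighbour SSL2, which encodes a helicase of the transcription factor TFIIH.

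CCT4 had summits 92 bp and 75 bp inside the coding sequence in wild_type, with folds of 1.86 and 1.49, and was not called in either yaf9d library, the 1 member with body summits in that pattern, against 1.73% of coding genes. CCT3 was called in wild_type replicate 2 alone, 109 bp inside and with a fold of 2.17. Its nearest summit in the other libraries was at least 12761 bp away. CCT8 had a summit 207 bp inside in wild_type replicate 1, with a fold of 2.60, and 1 of fold 1.32 in yaf9d replicate 2 at 1344 bp, far along the gene.

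CCT5 owed its wild_type promoter calls to peaks with different summits. In replicate 1 the summit (fold 2.75) lay 577 bp upstream inside RPA12, which encodes a subunit of RNA polymerase I, and in replicate 2 it lay 89 bp inside CCT5 (fold 2.30) under a wide peak on chromosome X from 555160 to 557351. The yaf9d replicate 2 peak of CCT5 (fold 2.59) had its summit 1350 bp into the gene. These 3 summits are separate positions, but the peaks are not separate. The wide peak of wild_type replicate 2 overlapped that of wild_type replicate 1, from 555120 to 555507. It also overlapped that of yaf9d replicate 2, from 557145 to 557418.

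CCT6 was called in all 4 libraries, with folds of 1.49, 1.46, 2.70 and 1.76. Its strongest summits lay 132 bp and 210 bp inside the coding sequence in wild_type and 156 bp inside in yaf9d replicate 2. In yaf9d replicate 1 the summit was 324 bp upstream instead, under a narrower peak on chromosome IV from 835848 to 836261, in the 928 bp gap that CCT6 shares with its divergent neighbour SND1. TCP1 and CCT7 had no call in any library, and their nearest summits stood at 2744 bp to 2773 bp and 3075 bp to 3099 bp upstream.

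**Figure D3:**
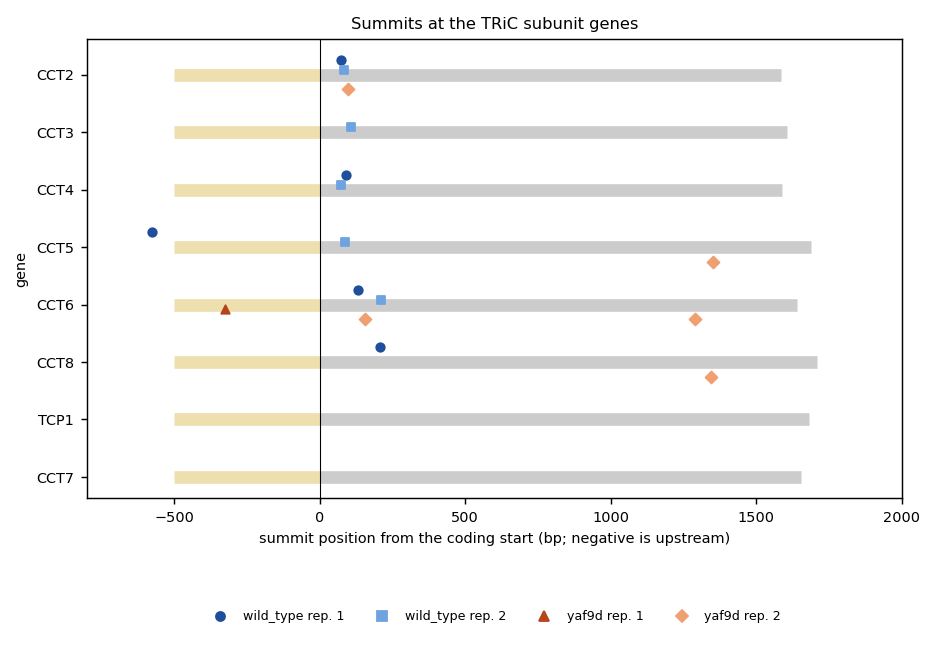
Summit positions in bp from the coding start at the 8 TRiC genes, for peaks with a promoter overlap or a body summit; grey bars are coding sequences, tan bars the 500 bp upstream, and symbols the libraries. The wild_type summits gather between 73 and 210 bp inside the coding sequence, except that of CCT5 in replicate 1 at 577 bp upstream, and TCP1 and CCT7 have none.

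A summit in the first 250 bp of the coding sequence, a length chosen after these positions were seen, was present at 4, 5, 0 and 2 of the 8 TRiC genes. The same held for 5.81%, 3.43%, 1.25% and 3.53% of all coding genes. HSP60 and HSP10 had no such summit. HSP60 was called in yaf9d alone, with body summits 331 bp inside in replicate 1 (fold 1.59) and 1661 bp inside in replicate 2 (fold 1.96), 57 bp before the coding end. The positions in the 2 libraries are thus at opposite ends of the gene. HSP10 had none, with its nearest summit 6146 bp away or farther.

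Over the chaperonin family body summits numbered 4, 5, 1 and 5 genes (exact permutation p = 1). The difference between the means is -1.5 genes, and 0.5 genes without yaf9d replicate 1. With the summit required inside the 500 bp window, 0, 0, 1 and 0 chaperonin genes remained, against 5.86%, 4.85%, 5.68% and 6.13% of coding genes. The promoter difference then turned to 0.5 genes. Body folds of the family, taking the best peak of each gene, had medians of 2.23, 2.17, 1.59 and 1.76, with HSP60 alone in yaf9d replicate 1.

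Hsp70 genes were marked mostly in the coding body. Of the 12, promoter peaks were present at 1, 2, 2 and 2, or 8.33%, 16.7%, 16.7% and 16.7%, near the 15.9%, 14.3%, 11.2% and 13.6% of all coding genes. Body summits were present at 2, 3, 3 and 6, or 16.7%, 25.0%, 25.0% and 50.0%, against 10.5%, 6.88%, 3.57% and 12.1%. The body means were 2.5 ± 0.71 (wild_type) and 4.5 ± 2.12 (yaf9d; SD, n = 2; exact permutation p = 0.667), a gap below the SD of yaf9d. Their body folds, taking the best peak of each gene, had medians of 1.57, 1.53, 1.47 and 1.77. These were below those of the chaperonin genes in 3 libraries and level with them in yaf9d replicate 2. In yaf9d replicate 1 the chaperonin value is that of HSP60 alone. No test was made between folds.

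SSB1 and SSB2 encode Hsp70 proteins that sit on the ribosome and receive nascent chains. SSB2 had a body summit in all 4 libraries, with best folds of 1.59, 1.49, 1.47 and 1.71, where 0.833% of coding genes had one in every library. SSB1 had best folds of 1.55 and 1.73 in wild_type and 1.89 in yaf9d replicate 2, and none in yaf9d replicate 1. Some summits fell at like places in both genes. Summits also fell elsewhere early in the genes, 204 bp into SSB1 in wild_type replicate 1 and 221 bp into SSB2 in yaf9d replicate 1. A site lay 455 bp and 456 bp into SSB1 (wild_type replicate 2, yaf9d replicate 2) and 457 bp, 465 bp and 465 bp into SSB2 (both wild_type libraries and yaf9d replicate 2). Late summits lay 1682 bp and 1685 bp into SSB1 and 1654 bp, 1721 bp and 1723 bp into SSB2, in genes of 1842 bp each. SSB1 and SSB2 are near-identical in sequence. Where reads matching both were placed is not stated in the sources, so the genes cannot be read as independent. Background at these summits was high, from 128 to 214, against list medians of 46.5 to 71.3.

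SSA1 and SSA2, the constitutive cytosolic Hsp70 genes, had body summits in both libraries of yaf9d and in neither of wild_type, a pattern seen at 0.750% of coding genes and at 3 of the 43 members, HSP60 being the other. At SSA2 the peaks nearly coincided, on chromosome XII from 96926 to 97417 and from 96928 to 97409, with summits 400 bp and 404 bp inside the gene and folds of 1.51 and 1.64. The depth there was the highest at any member, 384 and 537, over backgrounds of 254 and 327. At SSA1 a peak near the coding end had its summit 81 bp and 70 bp before the end, with folds of 1.41 and 1.62. Yaf9d replicate 2 had further SSA1 summits at 1259 bp (fold 2.04) and 235 bp (fold 2.17). The late SSA1 peak also covers the tRNA gene TRN1, whose middle is 381 bp and 370 bp from the summits. These copies too are highly similar, and the same limit on shared reads holds.

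SSA3, SSA4, SSE2, an Hsp110 exchange factor gene, and LHS1, whose product acts in the endoplasmic reticulum, had no call. SSE1, the main Hsp110 gene, had a body summit in yaf9d replicate 2 alone (fold 1.82). SSZ1, which with ZUO1 forms the ribosome-associated complex that activates Ssb, had a summit 229 bp inside the gene in wild_type replicate 2 alone (fold 1.53), under a peak that also reached 20 bp into its promoter. ZUO1, a J-domain protein gene, had summits 974 bp and 994 bp inside, in replicate 2 of wild_type (fold 1.44) and of yaf9d (fold 1.48). These lay 327 bp and 307 bp before its coding end.

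SSC1 and KAR2 were the Hsp70 genes with promoter peaks in both yaf9d libraries. SSC1, the mitochondrial Hsp70 that draws proteins through the import channel, had no call in wild_type replicate 1 and folds of 1.35, 2.16 and 1.4 in the other 3 libraries. The summits lay 44 bp upstream, 229 bp upstream and 387 bp inside the gene, in that order, so the summit position differed among libraries. The peaks themselves overlapped, and all of them covered chromosome X from 521621 to 521996. KAR2, the endoplasmic reticulum Hsp70 (BiP), had folds of 1.89, 2.37 and 1.92 in wild_type replicate 1 and the yaf9d libraries, and no call in wild_type replicate 2. Its divergent neighbour TAD2, which encodes part of a tRNA-editing deaminase, starts 325 bp away, and the summit lay inside TAD2 in wild_type replicate 1 and yaf9d replicate 2, and between the genes, 279 bp upstream of KAR2, in yaf9d replicate 1.

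**Figure D4:**
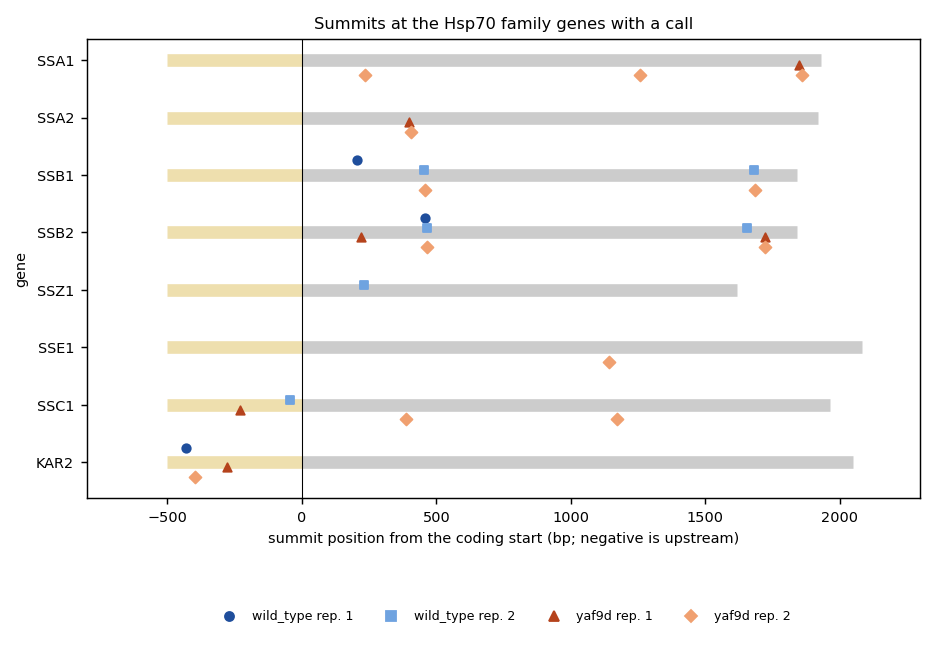
Summit positions in bp from the coding start at the 8 Hsp70 family genes with a call, drawn as for the TRiC genes. SSB1 and SSB2 share a site near 456 bp in some libraries, with further summits at 204 bp in SSB1 and 221 bp in SSB2. Their late summits lie at 1682 bp and 1685 bp in SSB1 and from 1654 bp to 1723 bp in SSB2. SSA1 and SSA2 carry yaf9d symbols alone, and KAR2 is marked upstream of the gene.

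Hsp90 genes had no call of either kind in any library. The nearest summits to HSC82, the constitutive gene, lay 3928 bp to 21160 bp from its coding start, and those to HSP82, the inducible gene, 1153 bp to 22172 bp. The closest HSP82 summits were both in wild_type, 1154 bp and 1153 bp upstream and beyond the 858 bp gap to the divergent gene YAR1. Counting peaks over 1000 bp upstream gave 1 Hsp90 gene in each wild_type library and 0 in each yaf9d library. The share of all coding genes over 1000 bp was not counted, so this split cannot be set against it. Over 500 bp, all coding genes also had more promoter calls in wild_type (15.9% and 14.3%) than in yaf9d (11.2% and 13.6%).

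The 12 co-chaperone genes had promoter peaks at 0, 0, 2 and 1 members, and body summits at 0, 1, 1 and 4. The body shares were 0%, 8.33%, 8.33% and 33.3%, against 10.5%, 6.88%, 3.57% and 12.1% of all coding genes. Promoter counts averaged 0 ± 0 (wild_type) and 1.5 ± 0.71 (yaf9d; n = 2, SD; p = 0.33 by exact permutation, the floor of the test). The yaf9d shares of 16.7% and 8.33% lie near the 11.2% and 13.6% of all coding genes, while 15.9% and 14.3% had a promoter peak in wild_type. The calls rest on 2 peak sites, described next. SBA1, which encodes the p23 co-chaperone of Hsp90, was the member whose promoter had a call in both lists of yaf9d and none in wild_type. Its peaks lay on chromosome XI from 219765 to 220059 and from 219801 to 220072, with folds of 3.09 and 3.27. Their summits were 21 bp and 8 bp from the middle of the tRNA gene YNCK0008W, and 414 bp and 401 bp upstream of SBA1. Promoter and tRNA gene cannot be told apart at this site.

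MDJ1, the mitochondrial J-domain protein gene, and HSP12, a small membrane-associated stress protein gene, owed their yaf9d replicate 1 calls to a single peak with a fold of 3.72, the highest of any member, on chromosome VI from 106494 to 106882. The summit lay inside YFL015C, 425 bp upstream of MDJ1 and 595 bp upstream of HSP12. MDJ1 also had a body summit 514 bp inside the gene in yaf9d replicate 2 (fold 1.34). YDJ1, the main cytosolic J-domain protein gene, had a body summit in yaf9d replicate 1 (fold 1.80). Those of CPR1 and CPR6, both cyclophilin genes, were seen in yaf9d replicate 2, with folds of 1.23 and 2.66. SIS1, JJJ1, FES1, STI1, AHA1 and CDC37, which encode J-domain proteins, an Hsp70 exchange factor and Hsp90 partners, had no call. A yaf9d replicate 2 peak (fold 1.93) overlapped 339 bp of the AHA1 coding body, with its summit 169 bp past the coding end.

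Among the 4 small or other heat shock protein genes, HSP30, a plasma membrane protein gene, had promoter peaks with folds of 1.61, 1.78 and 2.19 in both wild_type libraries and yaf9d replicate 1. These overlapped the window by 4 bp, 17 bp and 41 bp, with summits 667 bp, 637 bp and 595 bp upstream, at the neighbour YCR022C or in its flank. It also had a body summit in wild_type replicate 2 (fold 1.46). HSP26 and HSP31 had no call. Promoter peaks of this family numbered 1, 1, 2 and 0 genes, and the means were equal at 1. Those counts are 25.0%, 25.0%, 50.0% and 0% of its 4 genes, against 15.9%, 14.3%, 11.2% and 13.6% of all coding genes.

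HSF1, the regulator, had no peak upstream and no body summit. In yaf9d, peaks on chromosome VII from 370842 to 371548 and from 370815 to 371516 had folds of 2.17 and 2.02, with summits 110 bp and 98 bp past the coding end. These peaks also overlapped 413 bp and 440 bp of the HSF1 coding body. The nearest wild_type summits lay 4241 bp and 4237 bp upstream of its coding start.

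**Figure D5:**
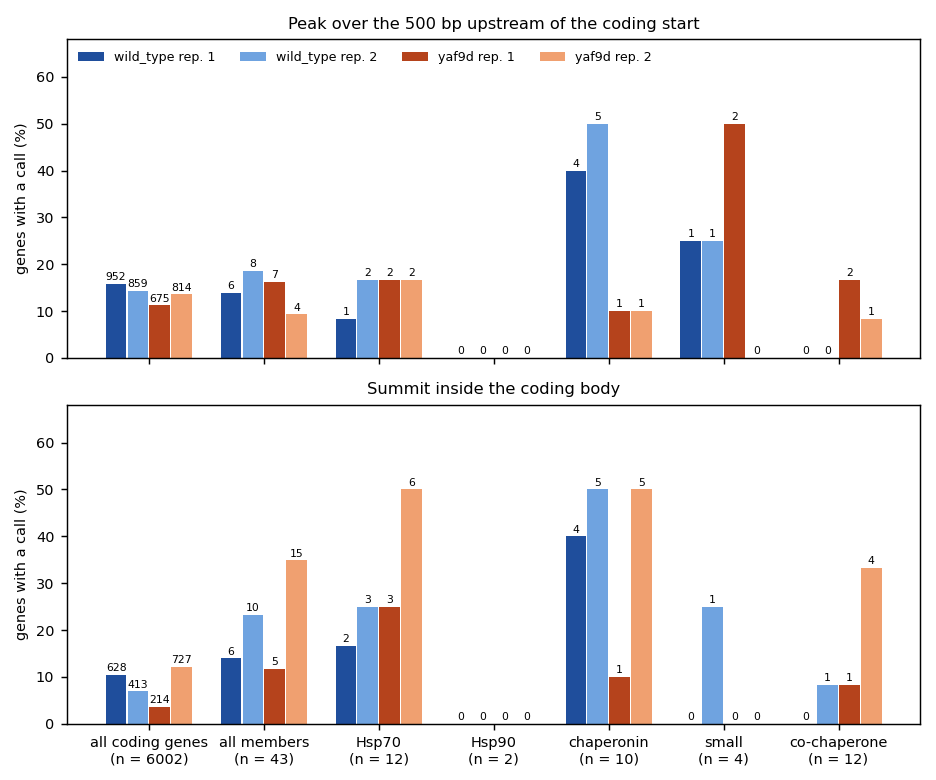
Percentage of genes with a promoter peak (top) and with a body summit (bottom) in each library, for all coding genes, all 43 members and the 5 families with comparisons; the number over each bar is the count of genes. Chaperonin promoter calls are 4 and 5 in wild_type and 1 in each yaf9d library, and the Hsp90 bars are at 0.

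The wider chaperone network was read in a second list of 49 genes for other J-domain proteins, exchange factors, Hsp90 partners, prefoldin, the nascent chain complex, prolyl isomerases, aggregate sorting and stress regulators. Promoter peaks were present at 10, 7, 6 and 7 of the 49, or 20.4%, 14.3%, 12.2% and 14.3%, against 15.9%, 14.3%, 11.2% and 13.6% of all coding genes (means 8.5 ± 2.12 and 6.5 ± 0.71, SD, n = 2; exact permutation p = 0.667). UBI4, the polyubiquitin gene, was called in all 4 libraries with folds of 1.91, 1.4, 4.0 and 2.49. Its yaf9d summits lay 291 bp and 289 bp upstream, while those of wild_type lay farther off, in PRP19 and ENT4.

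Of the 49 promoters, 2 were called in wild_type alone, in both libraries, against 3.23% of coding genes, a share near that background. The reverse held for 3, against 1.50% of coding genes. The list was chosen with earlier results of these data known, so these 3 genes cannot be judged against that share. Those called in wild_type alone were GIM3, a subunit of prefoldin, which passes chains to TRiC, and ESS1, a prolyl isomerase. GIM3 had summits 108 bp and 132 bp inside the gene, with folds of 2.06 and 2.17, and no peak in yaf9d. ESS1 kept body summits in all 4 libraries, with folds of 1.77, 1.32, 1.42 and 1.72, and its peaks in yaf9d ended before the promoter. The reverse pattern was shown by HSP42 and BTN2, which sort misfolded protein, and MBF1, a transcriptional coactivator. CUR1, also an aggregate sorting gene of this list, had no promoter peak or body summit in any library. HSP42 had summits 238 bp and 228 bp upstream with folds of 6.68 and 3.68, and BTN2 306 bp and 292 bp upstream with 9.53 and 4.50. MBF1 had folds of 1.60 and 1.67 with summits 136 bp and 155 bp inside the gene. HSP42 and BTN2 thus exceeded in yaf9d replicate 1 every peak of the 43 members. So did UBI4 and the stress regulator gene RPN4, the latter with a promoter fold of 6.29. RPN4 also had promoter peaks in wild_type replicate 2 (fold 2.88) and yaf9d replicate 2 (fold 3.36). SNL1, an exchange factor gene of this list, likewise exceeded every member peak, and did so in both genotypes. Its promoter folds were 4.25 in wild_type replicate 2 and 3.75 in yaf9d replicate 2, with no call in replicate 1 of either genotype.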

How the data were processed

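Each library has its own deposited peak list, called per library and not on pooled samples. The tools were MACS2 (its version is listed as 2), BWA 0.7.15-r1140 and SAMtools 1.4, per the submitters' processing notes. Settings, genome build, any control and the handling of reads with several matches: not given in the sources used here. The deposited fold (a ratio) is the authors' enrichment at the summit, and the authors' −log10 p-value and −log10 q-value belong to the same summit. The deposited score was not used. Folds serve to describe and rank peaks inside a list, with no test across lists.

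Peaks on the 16 nuclear chromosomes were kept, which left out 39 mitochondrial peaks of yaf9d replicate 2. Coding starts and strands came from a RefSeq gene table (R64) and its systematic names. As a check of positions, 276 summits lay up to 300 bp from a tRNA gene's midpoint, and 88.8% of them up to 100 bp. Coordinates are those of the lists, with starts counted from 1. Read totals are not in the lists. Depth and background at a summit were solved from fold and p-value as a whole-number Poisson count within 0.001, which succeeded for 99.5%, 99.9%, 99.7% and 99.5% of peaks (wild_type, then yaf9d).

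Counts of genes per library were compared between genotypes by an exact two-sided permutation test (Python 3.11.15, scipy 1.17.1), over 13 counts with no adjustment, since none can go below 0.33. Steps were checked on simulated peaks. The members, families and second list were chosen with earlier results of these data known. Values are given for members called in both libraries of a genotype, and other members are accounted for with their calls. In the second list, genes with a promoter peak in all 4 libraries, or in both libraries of 1 genotype alone, are named. CUR1, RPN4 and SNL1 are named beside them. Promoter and protein sequences were not used here.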

Additional observations from a re-analysis of the deposited data

How the results depend on the processing

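Differences below are yaf9d minus wild_type mean numbers of genes. Over 13 counts and 131 alternatives, 100 kept the direction or stayed at 0, 15 turned it and 16 moved to or from 0. The smallest exact permutation p was 0.33, the floor of this design.

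For members with a promoter peak the difference of -1.5 became 1.5 with peaks of fold 2 or more, 2 with a −log10 q of 5 or more, 2.5 with the summit inside the window and 0.5 with an overlap of 100 bp or more, and it ranged from -3 to 0 when each library was left out in turn. For members with a body summit (2) it became -1 with fold 2 or more and -3.5 with summits in the first 250 bp, a setting chosen after seeing the data, and ranged from -3 to 7 with a library left out. Chaperonin promoters (-3.5) turned to 0.5 with the summit inside the window and ranged from -4 to -3 with a library left out, and chaperonin bodies (-1.5) ranged from -3.5 to 0.5. Hsp70 promoters (0.5) gave -0.5 over 1000 bp and 0 to 1 with a library left out, and Hsp70 bodies gave 0 with the first 250 bp. Hsp90 promoters (0) gave -1 over 1000 bp. Small heat shock promoters (0) gave 1 with fold 2 or more, 1 with −log10 q of 5 or more, 0.5 with 100 bp of overlap and -1 to 1 with a library left out, and their bodies (-0.5) gave 0 with fold 2, −log10 q of 5 or the first 250 bp, and -1 to 0 with a library left out. Co-chaperone promoters (1.5) gave 0 within 250 bp upstream, and co-chaperone bodies (2) gave 0 with the first 250 bp. The second list (-2) gave 1 with fold 2 or more, 0.5 with −log10 q of 5 or more, 3.5 with the summit inside the window, 0.5 with 100 bp of overlap and 1 over 1000 bp. The cause was not tested.

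The replicate numbers are shared by the genotypes, but nothing in the labels says that they pair the libraries. The correlation over genes of the replicate differences was -0.03 for promoter peaks and -0.008 for body summits. A replicate block left each difference as it was (-1.5 for promoter peaks, 2 for body summits), with exact sign-flip p from 0.5 to 1, where 2 pairs cannot go below 0.5. Of the 58 peaks at members, 17 have a fold of 2 or more, and read totals behind the lists are unknown.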
